A study of Mus musculus with 8 samples.

Results

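The 9 genes of heme synthesis described here, read across the 8 RNA-seq libraries of the study, are Alas1, Alas2, Alad, Uros, Urod, Cpox, Ppox and Fech, which encode enzymes of the pathway, and Slc25a37, which encodes mitoferrin-1, the carrier that brings iron into the mitochondria of red cell precursors. They were taken by name and not by a rule on their values, although the list was drawn up with earlier results of these data known, and all 9 were found among the 25066 genes that any library had counts for. The list does not cover every step of the pathway. Cells came from F1 pups aged 1 week, born to CD11c-DTR dams (C57BL/6 background, H2K-b, with a diphtheria toxin receptor transgene driven by the Itgax promoter) mated with BALB/c males (H2K-d). Dams had received diphtheria toxin (DT) at 5 ng/g of body weight on E13, which depletes CD11c+ dendritic cells (DC-depleted), or saline (DC control). In-utero transplantation (IUT) on E14 placed 5000000 bone marrow mononuclear cells in the liver of each fetus. These donor cells were from C57BL/6 mice carrying CD45.1 in maternal donor cell IUT (mIUT), and from BALB/c mice in paternal donor cell IUT (pIUT). The groups were uninjected pups (17 pooled), DC control mIUT (7), DC control pIUT (5) and DC-depleted pIUT (5). The uninjected pups came from dams with or without DT, in a proportion that the sources used here do not give. Whole-body harvests were sorted by magnetic beads and then flow cytometry, with an antibody to H2K-b for trafficked maternal cells and to H2K-d for recipient cells. F1 cells carry both haplotypes, BALB/c donor cells share H2K-d with the recipient, and C57BL/6 donor cells share H2K-b with the dam. Each origin and treatment gave 1 pooled library, so there were no replicates, treatments could not be tested within an origin, and the folds below compare libraries and not conditions. Origin was tested once over all 8 libraries, with treatment as a block.

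Heme is made from glycine and succinyl-CoA in a chain of reactions that begins and ends in the mitochondrion and passes through the cytosol. The first enzyme, aminolevulinic acid synthase, exists as ALAS1, found in most tissues and repressed by heme, and ALAS2, the form of red cell precursors. Erythroid cells make most of the heme of the body, for hemoglobin, and the liver, the site of erythropoiesis in the fetus, makes heme for cytochromes. ALAS2 protein is also controlled through an iron-responsive element (IRE), a hairpin in the 5′ UTR of its mRNA that iron regulatory proteins bind when iron is short, which holds back translation.

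The IRE was looked for in the annotated 5′ UTRs, since it is the point at which iron acts on the making of ALAS2. The pattern was C, any 5 bases, CAGTGN, and 5 bases that pair with the first 5 with G-T pairs allowed, and it was searched on the strand of the mRNA. Of the 9 members, only Alas2 held it. Across all genes it was present in 24 of 20618 5′ UTRs (0.116%), which included those of the ferritin chains Fth1 and Ftl1 and the iron exporter Slc40a1 (ferroportin). These 4 are shown as DNA from GRCm39, 5′ to 3′, with the loop core in capitals. The Alas2 element is split by an intron (chrX:149330454-149330481 and chrX:149335145-149335146, plus strand), and the others lie at chr19:9960096-9960125 (plus), chr7:45109202-45109231 (minus) and chr1:45964624-45964653 (minus).
Alas2: ttggttcgtcctCAGTGcagggcaacagga
Fth1: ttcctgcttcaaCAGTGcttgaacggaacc
Ftl1: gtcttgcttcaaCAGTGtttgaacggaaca
Slc40a1: caacttcagctaCAGTGttagctaagtttg
The pattern fixes this loop core and the C that comes before the first 5 bases, and it constrains the other bases only through the pairing. RNA-seq reads the amount of such an mRNA and not its translation.

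The 250 bases before the start of the transcript that the annotation marks as canonical were searched in 8 members. Both strands were read for motifs of known promoter elements. For Alas1, Alad, Uros and Ppox that start, and the window before it, lie inside the gene span given below, so other starts of these genes were not covered. The forms of the GATA motif, which the erythroid factor GATA1 binds, were AGATAA and, as its close variant, TGATAA. The form bound by factors of the KLF family was CCACACCC. The GC box was searched as CCCGCCC, and the core element that positions transcription in many tissue-specific genes as TATAAA. These 2 promoters are shown because Alas2 was the member with a GATA-type match and Alad the one with most GC boxes. The motif matches are in capitals, and no match overlapped another.
Alas2 (GRCm39, chrX:149330121-149330370, plus strand): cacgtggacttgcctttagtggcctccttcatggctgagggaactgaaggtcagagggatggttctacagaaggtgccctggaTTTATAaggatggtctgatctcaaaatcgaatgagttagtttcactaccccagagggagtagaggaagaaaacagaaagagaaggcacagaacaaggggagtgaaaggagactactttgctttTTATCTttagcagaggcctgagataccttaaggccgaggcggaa
Alad (GRCm39, chr4:62438194-62438443, minus strand): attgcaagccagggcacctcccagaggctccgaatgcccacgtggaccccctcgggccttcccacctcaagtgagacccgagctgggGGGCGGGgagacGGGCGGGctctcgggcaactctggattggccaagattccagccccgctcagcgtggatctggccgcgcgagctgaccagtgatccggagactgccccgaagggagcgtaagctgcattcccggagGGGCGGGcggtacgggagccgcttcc
In Alas2, AGATAA read on the other strand lay 44 bases before the start and TATAAA, also on the other strand, 167 bases before it. Alad had 3 CCCGCCC matches, at 163, 151 and 26 bases before its canonical transcript start, and Uros had 1, at 16 bases before its own. The remaining 5 promoters (Alas1, Urod, Cpox, Ppox and Slc25a37) held none of these letters in this window. In all 21770 promoters of the same length, 9.6% held AGATAA, 7.63% TGATAA, 15.9% either of them, 3.56% CCACACCC, 25.8% CCCGCCC and 11.9% TATAAA. The GC content was 47.6% for Alas2 and 68.8% for Alad.

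Libraries held between 38543457 and 47965130 counts. Levels are given as CPM, that is counts normalised to the total of the library multiplied by its TMM factor, and 95% intervals cover counting error only. The limit of detection was set at 3 counts. All 9 members were above that floor in all 8 libraries, the lowest being Alas2 with 15 counts in the recipient DC control mIUT library. That library stood apart from the others. The 4 adult hemoglobin genes made up 0.0144% of its counts, against 1.81% to 16.4% in the other 7, and its 8 neutrophil genes summed to 263700 CPM, led by Ngp at 76910 CPM. The maternal DC control mIUT library also had high neutrophil genes (162500 CPM), and the other 6 libraries had between 1528 and 47270 CPM. Of genes with at least 10 CPM in each of the other libraries, 9.51% were under 1 CPM in the recipient uninjected library and 4.86% in the maternal DC control mIUT library, against at most 1.26% elsewhere. The study's text calls the cells mononuclear. T cell genes were above the floor for 7 to 10 of 10 in every library, while all 7 genes of conventional dendritic cells were at 0 in the maternal DC control mIUT library.

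Alas2 ran from almost nothing to over 1000 CPM, and its range was the widest of the 9 genes. In trafficked maternal cells it was at 374 CPM in uninjected pups, 151 CPM in DC control mIUT, 1406 CPM in DC control pIUT and 615 CPM in DC-depleted pIUT. In recipient cells it was at 428 CPM in uninjected pups, 0.523 CPM (0.293 to 0.863) in DC control mIUT, 479 CPM in DC control pIUT and 303.5 CPM in DC-depleted pIUT. The maternal DC control pIUT library was the highest and the recipient DC control mIUT library the lowest, and no neighbours in the order of the 8 levels had overlapping intervals. In pooled cells of mixed types, fewer cells of a type and less RNA per cell cannot be told apart, here and in all results that follow. The gene lies on chromosome X (chrX:149330371-149353634, plus strand), and its whole span is overlapped on the other strand by Apex2. Use of strand in the counting was not given in the sources used here, so reads of such pairs may be shared.

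Alas1 had another order. In trafficked maternal cells it was at 47.9 CPM in uninjected pups, 141 CPM in DC control mIUT, 43.4 CPM in DC control pIUT and 32.9 CPM in DC-depleted pIUT. In recipient cells it was at 210.1 CPM in uninjected pups, 259.7 CPM in DC control mIUT, 98.9 CPM in DC control pIUT and 304.6 CPM in DC-depleted pIUT. Each recipient library was above the maternal library of its treatment, and the 3 lowest values were maternal. The recipient DC control mIUT library, which had hardly any Alas2, had the second highest Alas1. Alas1 (chr9:106110642-106135734, minus strand) is used by cells of all kinds, hepatocytes and granulocyte precursors included. Hepatocyte genes were counted beside it, since the liver was part of the harvest. The 10 genes summed to 10260 CPM in recipient uninjected cells, 9055 of them from Afp, and to 942 CPM in recipient DC-depleted pIUT cells. In recipient DC control mIUT cells they summed to 30.8 CPM, with 2 of 10 at 0. Alb, the defining hepatocyte product, was at 19.7, 128.6 and 0.488 CPM in these 3 libraries. In recipient DC control pIUT cells, with the lowest recipient Alas1, the hepatocyte genes summed to 5.58 CPM. In maternal cells they summed to 56.0 CPM in uninjected pups, 4517 CPM in DC control mIUT, 197.7 CPM in DC control pIUT and 747 CPM in DC-depleted pIUT. Whether liver cells had a part in the Alas1 levels was not tested.

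**Figure D1:**
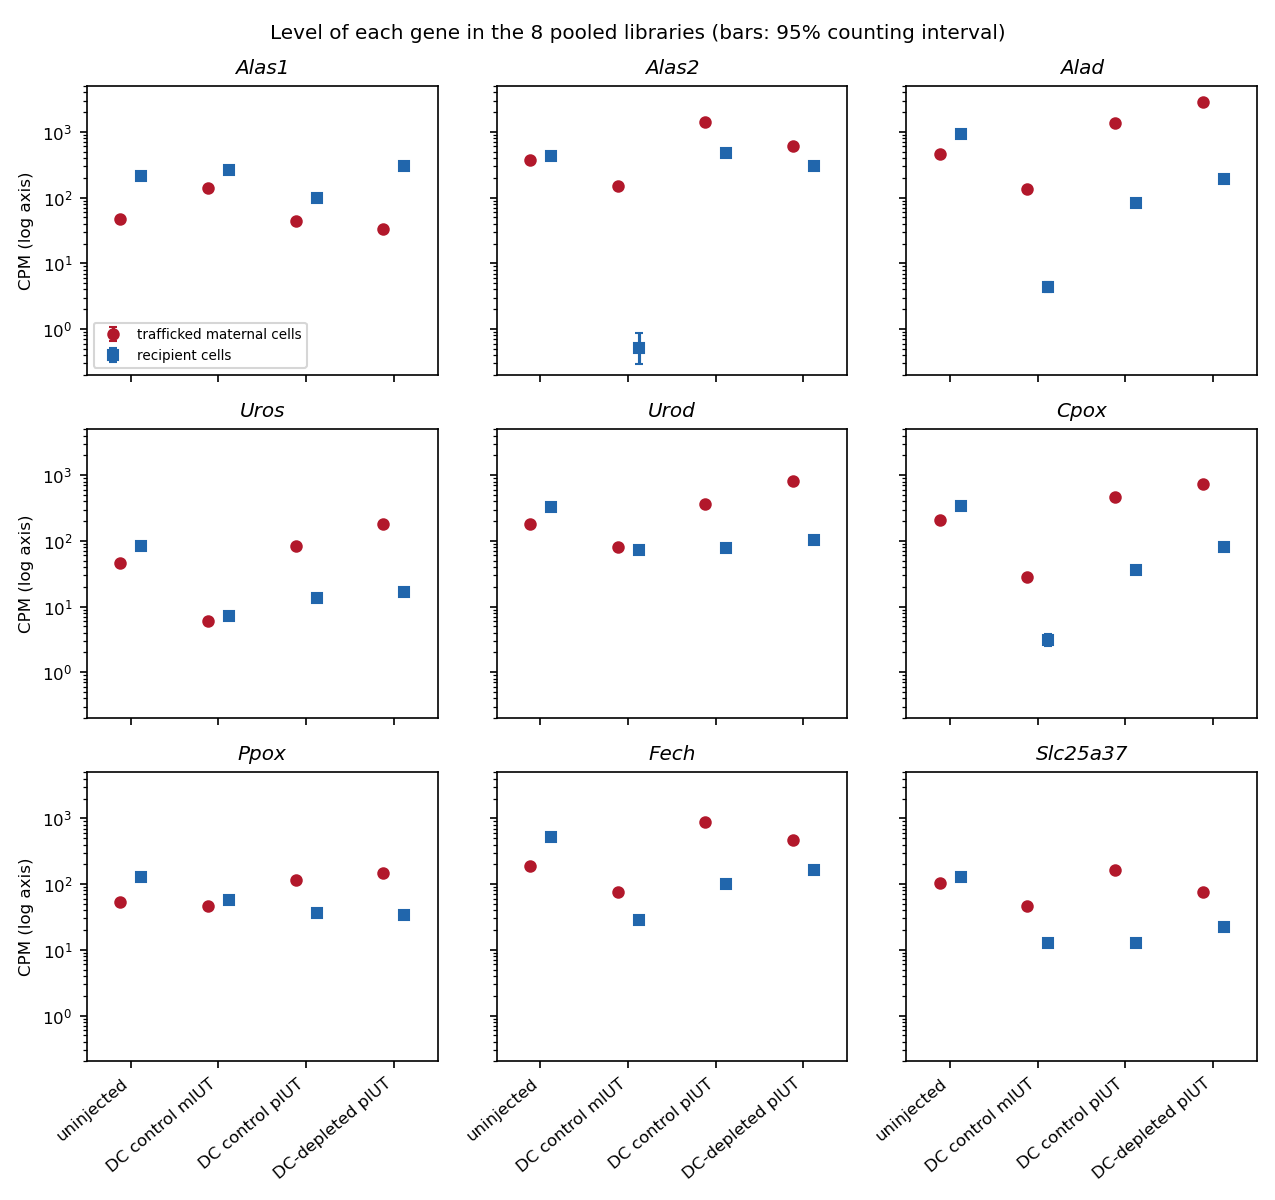
Level of each of the 9 genes (CPM, log axis, the same in every panel) in trafficked maternal cells (circles) and recipient cells (squares) of the 4 treatments. Each point is 1 pooled library and bars are 95% counting intervals. Alas2 drops to 0.523 CPM in the recipient DC control mIUT library, while Alas1 is at 259.7 CPM there.

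The share of ALAS counts that came from Alas2 does not depend on how libraries are scaled to each other. It was 88.6% (95% Clopper-Pearson interval 88.1 to 89.1) in maternal uninjected cells, 51.8% (50.9 to 52.7) in maternal DC control mIUT, 97.0% (96.9 to 97.1) in maternal DC control pIUT and 94.9% (94.6 to 95.2) in maternal DC-depleted pIUT. Recipient cells had 67.1% (66.5 to 67.6) in uninjected pups, 0.201% (0.113 to 0.331) in DC control mIUT, 82.9% (82.4 to 83.3) in DC control pIUT and 49.9% (49.4 to 50.4) in DC-depleted pIUT. Within each treatment the maternal library had the larger share, and within each origin the mIUT library had the smallest. DC-depleted pIUT had a smaller share than DC control pIUT in both origins, by a few points in maternal cells and from 82.9% to 49.9% in recipient cells. Corrected for transcript length, 49.9% became 62.5%. The same Alas1 and Alas2 lengths were used for every library, so this correction could not change the order of the 8 libraries by share.

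**Figure D2:**
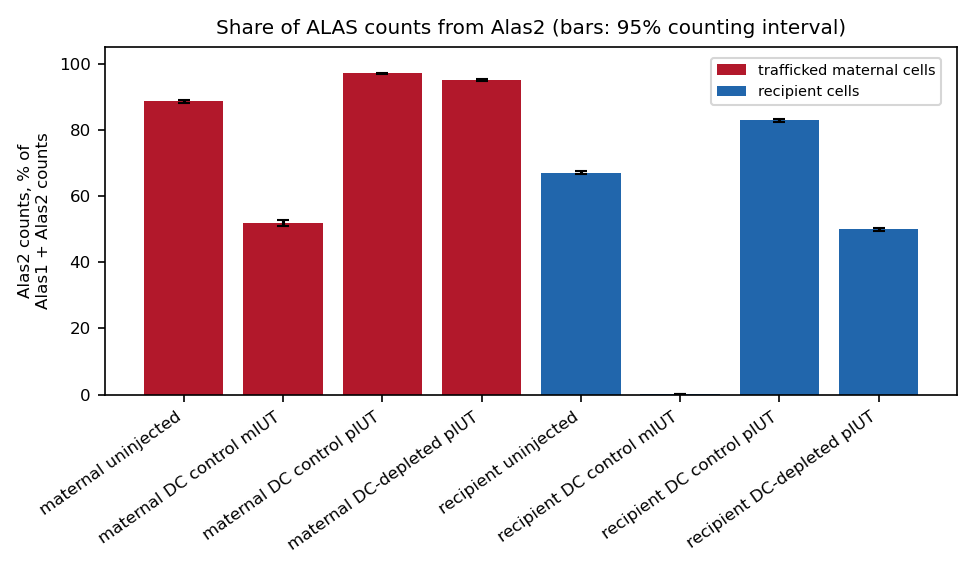
Alas2 counts as a percent of Alas1 plus Alas2 counts in each of the 8 pooled libraries, with bars for 95% counting intervals. The share reaches 97.0% in maternal DC control pIUT cells and is 0.201% in recipient DC control mIUT cells, too low to be seen as a bar.

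Alad encodes aminolevulinic acid dehydratase, the cytosolic second enzyme of the pathway (chr4:62423283-62438587, minus strand). It was at 464, 136, 1368 and 2899 CPM in maternal uninjected, DC control mIUT, DC control pIUT and DC-depleted pIUT cells. The recipient libraries of the same treatments, in the same order, were at 924, 4.39, 81.4 and 191.7 CPM. Maternal DC-depleted pIUT was the highest library and recipient DC control mIUT the lowest. Per kilobase of transcript, the ranking of Alad and Alas2 changed between the maternal pIUT libraries. In DC control pIUT, Alas2 stood at 690.0 and Alad at 310.2 CPM per kilobase. In DC-depleted pIUT, Alas2 stood at 301.7 and Alad at 657 CPM per kilobase. The ratio of Alad to Alas2 counts went from 0.974 in the former to 4.72 in the latter.

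Uros encodes uroporphyrinogen III synthase (chr7:133285987-133311801, minus strand) and is the next member. Its levels in the maternal libraries, in the order used above, were 45.6, 5.94, 83.8 and 183.2 CPM. In the recipient libraries they were 84.4, 7.15, 13.6 and 16.8 CPM. The maternal DC-depleted pIUT library was again highest and both mIUT libraries were lowest, with overlapping intervals between those mIUT libraries and between recipient uninjected and maternal DC control pIUT cells. Urod encodes uroporphyrinogen decarboxylase, which ends the cytosolic stretch (chr4:116844840-116851610, minus strand). It was at 180.8, 79.8, 367.5 and 827 CPM in maternal cells and 325.5, 71.9, 78.7 and 104.1 CPM in recipient cells. Its spread was narrower than that of Alad, and recipient DC control mIUT cells, almost without Alas2 and Alad, had 71.9 CPM.

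Cpox and Ppox encode coproporphyrinogen oxidase and protoporphyrinogen oxidase, which bring the pathway back into the mitochondrion. Cpox (chr16:58490414-58537999, plus strand) was at 206.5, 28.2, 457 and 728 CPM in maternal cells and 335.5, 3.10, 35.7 and 81.8 CPM in recipient cells. Ppox (chr1:171100969-171109385, minus strand) was at 54.3, 46.9, 113.5 and 149.6 CPM in maternal cells and 130.2, 56.7, 36.0 and 34.1 CPM in recipient cells. Cpox followed Alad closely, whereas Ppox had the narrowest range of the 9 genes, from 34.1 to 149.6 CPM. Intervals of Ppox overlapped between the recipient pIUT libraries, and between recipient DC control mIUT and maternal uninjected cells. Ppox shares 3512 bases of its span with the antisense gene B4galt3.

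Fech encodes ferrochelatase, which puts iron into protoporphyrin as the last step. It was at 191.8, 75.7, 895.8 and 463 CPM in maternal cells and 529, 28.7, 101.0 and 165.7 CPM in recipient cells. Slc25a37 (chr14:69479297-69522561, minus strand), the iron carrier, was at 102.7, 46.2, 166.7 and 76.8 CPM in maternal cells and 128.8, 12.9, 12.8 and 22.6 CPM in recipient cells. For both genes, as for Alas2, the maternal DC control pIUT library was the highest, above maternal DC-depleted pIUT. The lowest Slc25a37 levels, in the recipient mIUT and DC control pIUT libraries, had overlapping intervals. Over the 9 genes, 6 of 63 pairs of neighbouring levels overlapped in this way.

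In trafficked maternal cells of DC control mIUT, 7 of 9 heme genes were at least 2-fold lower than in maternal uninjected cells, 1 (Alas1) was at least 2-fold higher, and Ppox lay between. Of all genes tested, 44% were at least 2-fold lower and 26.5% at least 2-fold higher, so this library was lower for many genes. The members' median log2 fold change was -1.31 against -0.601 over all genes. Uros was 7.68-fold lower (log2 fold change -2.94, 95% interval -3.15 to -2.74) and Cpox 7.31-fold lower (-2.87, -2.96 to -2.78). Alas2 was 2.47-fold lower and Alas1 2.94-fold higher. Erythroid genes were lower with them, 16 of 17 measured by at least 2-fold, and 9 of 18 were at 0, Rhag among them, at least 2140-fold lower. Of 8 erythroid transcription factors, 6 were at least 2-fold lower and 1 higher. Klf1 was at 0 and Gata1, which drives erythroid genes, had 1 count (0.0258 CPM), while Nfe2 was 4.79-fold higher (501.9 against 104.8 CPM) and Ldb1 1.12-fold lower, and the list summed to 583 CPM against 475 CPM. The hemoglobin sum was 20800 CPM, so hemoglobin, Alas2 and Alad were present in a library without Klf1. Neutrophil genes were at least 2-fold higher for 8 of 8, from a sum of 2287 to 162500 CPM, and hepatocyte genes for 8 of 9 measured, from 56.0 to 4517 CPM. Lymphoid genes were at least 2-fold lower, 7 of 7 of B cells (6868 to 323 CPM), 6 of 6 of NK cells (1229 to 275.9 CPM) and 9 of 10 of T cells (2240 to 497 CPM). The part of these cells in the heme gene levels was not tested.

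In maternal cells of DC control pIUT, 6 of 9 heme genes were at least 2-fold higher than in maternal uninjected cells and 0 were at least 2-fold lower. Over all genes, 33.3% were at least 2-fold higher and 33.7% lower, and the medians were 1.06 for the members and 0.001 for all genes. Fech, the last enzyme, was 4.67-fold higher (log2 fold change 2.22, 2.19 to 2.26) and Alas2 3.76-fold higher (1.91, 1.88 to 1.94). Alad was 2.95-fold, Cpox 2.21-fold, Ppox 2.09-fold and Urod 2.03-fold higher. Uros at 1.84-fold and Slc25a37 at 1.62-fold higher stayed under the threshold. Alas1 was 1.10-fold lower, and 3 other scalings of the libraries put it slightly higher. Erythroid genes were at least 2-fold higher for 12 of 18 and lower for 0, with Klf1 2.79-fold higher. Without hemoglobin, the erythroid genes summed to 4519 CPM, against 1437 CPM in uninjected cells. Lymphoid genes were lower in the same comparison, 10 of 10 of T cells (2240 to 127.4 CPM), 7 of 7 of B cells (6868 to 70.2 CPM) and 6 of 6 of NK cells (1229 to 146.3 CPM), and monocyte and macrophage genes summed to 698 CPM against 14410 CPM. Hepatocyte genes were at least 2-fold higher for 7 of 9 measured (56.0 to 197.7 CPM) and cell division genes for 5 of 6 (278 to 1372 CPM), and neutrophil genes were lower for 4 of 8 (2287 to 1528 CPM). Of the lymphoid lists, Cd4, Cd5, Cd6, Pax5, Cd22, Ncr1, Klrb1c and Eomes were at 0 in DC control pIUT. The part of these cells in the heme gene levels was not tested. With library size as the scale, 8 of 9 heme genes were at least 2-fold higher.

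In maternal cells of DC-depleted pIUT, 6 of 9 heme genes were at least 2-fold higher than in maternal uninjected cells and 0 lower, but with another profile. Over all genes, 35.3% were at least 2-fold higher and 34.7% lower, with medians of 1.46 for the members and 0.061 for all genes. Alad was 6.25-fold higher (log2 fold change 2.64, 2.62 to 2.67), Urod 4.57-fold, Uros 4.02-fold, Cpox 3.53-fold, Ppox 2.76-fold and Fech 2.41-fold. Alas2 was 1.64-fold higher, while Slc25a37 was 1.34-fold and Alas1 1.46-fold lower. Both pIUT libraries were set against the same uninjected library, so these comparisons are not independent of each other. Erythroid genes were at least 2-fold higher for 11 of 18 and lower for 2. Gata1 was 9.58-fold higher and Klf1 4.60-fold higher. All 10 T cell, 7 B cell and 6 NK cell genes were at least 2-fold lower, with sums of 415, 33.2 and 103.3 CPM, and monocyte and macrophage genes summed to 1616 CPM. Other lists were higher. Neutrophil genes were at least 2-fold higher for 6 of 8, from 2287 to 10820 CPM, with Mpo, a granule enzyme of granulocyte precursors, 1010-fold and Camp 24.1-fold higher. Hepatocyte genes were higher for 8 of 9 measured, from 56.0 to 747 CPM, and cell division genes for 4 of 6, from 278 to 2265 CPM. The part of these cells was not tested.

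Between the maternal pIUT libraries, the question was how maternal DC depletion went with the heme genes of trafficked cells, and the members divided. Urod, Uros and Alad were higher in DC-depleted pIUT by 2.25-fold (log2 fold change 1.17, 1.14 to 1.2), 2.19-fold (1.13, 1.07 to 1.18) and 2.12-fold (1.08, 1.07 to 1.10). Alas2 was 2.29-fold lower (-1.19, -1.22 to -1.17), Slc25a37 2.17-fold lower (-1.12, -1.18 to -1.05) and Fech 1.94-fold lower (-0.95, -0.98 to -0.93). Cpox was 1.59-fold and Ppox 1.32-fold higher, and Alas1 1.32-fold lower. By count, 3 of 9 were at least 2-fold higher, against 38.6% of all genes, and 2 of 9 at least 2-fold lower, against 36.4%. These shares are near the background. With library size alone as the scale, 0 of 9 were at least 2-fold higher and 3 lower, while Ppox turned slightly lower. The differences among members within a library do not depend on the scale: the ratio of Fech to Alad counts was 0.655 in the DC control and 0.160 in the DC-depleted library. Of 18 erythroid genes, 3 were at least 2-fold higher and 6 lower. Car1 (carbonic anhydrase 1) was 5.90-fold and Epor (the erythropoietin receptor) 4.29-fold higher, while the membrane proteins Epb42 and Slc4a1 were 6.69-fold and 3.98-fold lower. Of the 8 erythroid transcription factors, Gata1 was 3.44-fold and Nfe2 2.46-fold higher, Zfpm1 4.08-fold lower, and 5 lay between. Neutrophil genes were at least 2-fold higher for 7 of 8, from a sum of 1528 to 10820 CPM, hepatocyte genes for 5 of 9 measured, from 197.7 to 747 CPM, and T cell genes for 5 of 9 measured, from 127.4 to 415 CPM. Cell division genes went from 1372 to 2265 CPM, with Ccnb1, Cdk1 and Pcna at least 2-fold higher and Top2a and Mcm2 at least 2-fold lower. Monocyte and macrophage genes went from 698 to 1616 CPM, with C1qa, Lyz2 and Clec4f at least 2-fold higher and Cd68 12.2-fold lower. B cell genes went from 70.2 to 33.2 CPM and NK cell genes from 146.3 to 103.3 CPM. Whether these cells had a part in the division of the members was not tested.

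**Figure D3:**
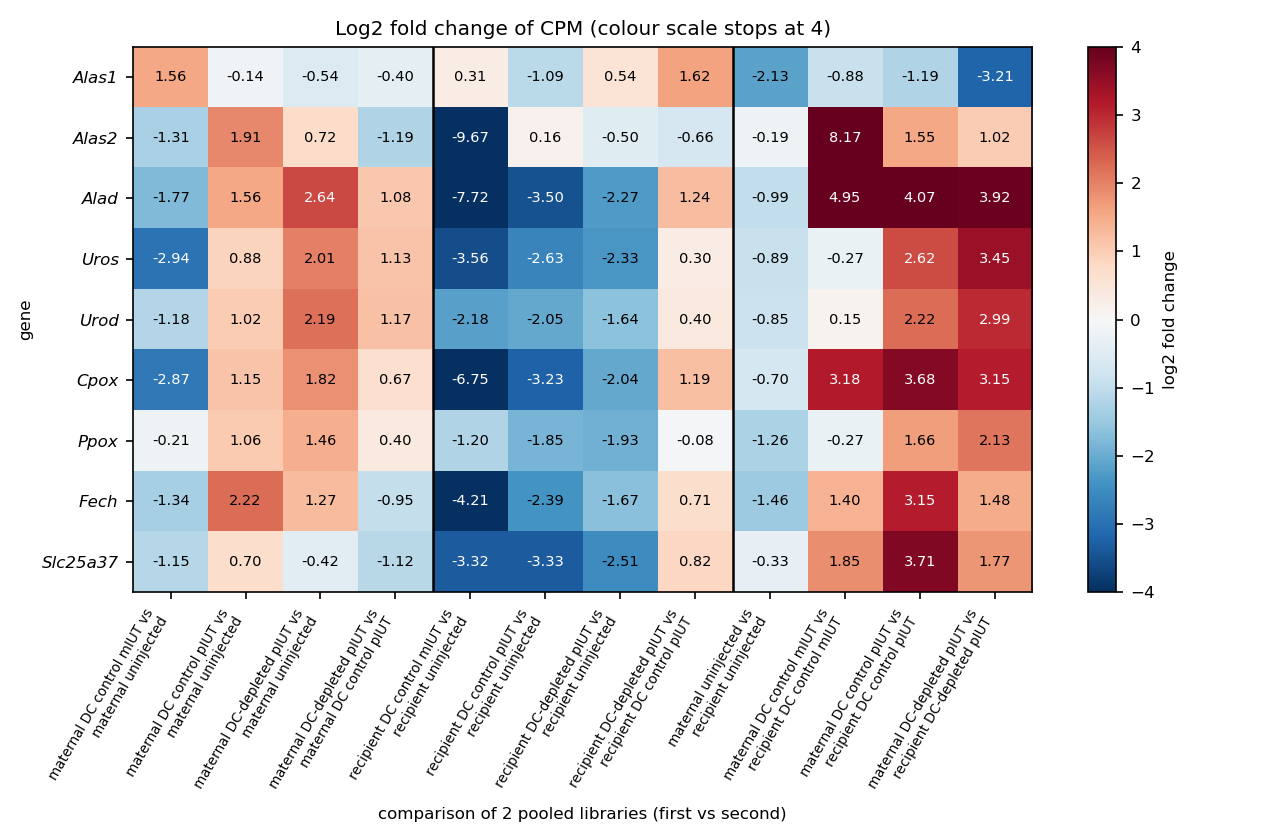
Log2 fold change of CPM of each gene (rows) in the 12 comparisons of pooled libraries (columns, first library against second), red for higher and blue for lower, with the value printed in each cell. Vertical lines separate maternal comparisons, recipient comparisons, and maternal against recipient. The fourth column shows Alad, Uros and Urod at 1.08 to 1.17 beside Alas2 at -1.19 and Slc25a37 at -1.12.

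In recipient cells of DC control mIUT, 8 of 9 heme genes were at least 2-fold lower than in recipient uninjected cells and 0 higher. Over all genes, 24.6% were at least 2-fold lower and 53.5% higher, and the medians were -3.56 for the members and 1.264 for all genes. Alas2 was 813-fold lower (log2 fold change -9.67, -10.51 to -8.95), Alad 210-fold lower (-7.72, -7.98 to -7.46) and Cpox 108-fold lower (-6.75, -7.07 to -6.46). Fech was 18.4-fold, Uros 11.8-fold, Slc25a37 10-fold, Urod 4.53-fold and Ppox 2.29-fold lower. Alas1 was 1.24-fold higher, and slightly lower when scaled by library size. Erythroid genes were at least 2-fold lower for 17 of 17 measured, and 10 of 18 were at 0. Neutrophil genes summed to 15200 CPM in the uninjected and 263700 CPM in the mIUT library, and hepatocyte genes to 10260 and 30.8 CPM. B cell genes summed to 1258 and 70.4 CPM, NK cell genes to 145.2 and 56.2 CPM, T cell genes to 626 and 684 CPM, and monocyte and macrophage genes to 25990 and 35450 CPM. Their part in the heme gene levels was not tested.

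In recipient cells of DC control pIUT, 8 of 9 heme genes were at least 2-fold lower than in recipient uninjected cells, and Alas2 was the exception. Over all genes, 20.2% were at least 2-fold lower and 52.2% higher, and the medians were -2.39 for the members and 1.128 for all genes. Alad was 11.4-fold lower (log2 fold change -3.50, -3.55 to -3.46), Slc25a37 10.1-fold, Cpox 9.39-fold, Uros 6.19-fold, Fech 5.24-fold, Urod 4.14-fold, Ppox 3.62-fold and Alas1 2.12-fold lower. Alas2 was 1.12-fold higher (0.16, 0.14 to 0.19). With library size as the scale, Alas1 fell short of 2-fold and 7 of 9 were lower. Hemoglobin summed to 39930 CPM, against 123100 CPM in uninjected cells, while the other erythroid genes summed to 60.8 CPM against 3080 CPM, and 5 of 18 were at 0. Of 8 erythroid transcription factors, 4 were at least 2-fold lower and 2 higher. Klf1 was 1320-fold lower, while Gata1 was 7.69-fold higher, at 7.17 against 0.93 CPM, and Tal1 had 55 counts against 1. Erythroid genes were at least 2-fold lower for 17 of 18, the exception being Car1, which was at 0 in uninjected cells. Hepatocyte genes were at least 2-fold lower for 7 of 8 measured, from a sum of 10260 to 5.58 CPM, and monocyte and macrophage genes for 6 of 8, from 25990 to 10650 CPM. Neutrophil genes were higher for 6 of 8, from 15200 to 47270 CPM, and T cell genes for 8 of 10, from 626 to 3961 CPM. NK cell genes were higher for 4 of 6 (145.2 to 789.5 CPM), and B cell genes lower for 5 of 6 measured (1258 to 192.4 CPM). Whether these cells had a part in the heme gene levels was not tested.

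In recipient cells of DC-depleted pIUT, 7 of 9 heme genes were at least 2-fold lower than in recipient uninjected cells and 0 higher. Over all genes, 18.2% were at least 2-fold lower and 53.1% higher, with medians of -1.93 for the members and 1.234 for all genes. Slc25a37 was 5.70-fold lower (log2 fold change -2.51, -2.60 to -2.42), Uros 5.02-fold, Alad 4.82-fold, Cpox 4.10-fold, Ppox 3.82-fold, Fech 3.19-fold and Urod 3.13-fold lower. Alas2 was 1.41-fold lower and Alas1 1.45-fold higher. Of 18 erythroid genes, 15 were at least 2-fold lower and 1 higher, with a sum of 26220 CPM against 126200 CPM, and of 493 CPM against 3080 CPM without hemoglobin. Monocyte and macrophage genes were lower for 4 of 8 and higher for 2 (25990 to 5805 CPM). Hepatocyte genes summed to 942 CPM against 10260 CPM, although 5 of 10 were at least 2-fold higher and 2 lower. NK cell genes were higher for 5 of 6 (145.2 to 999.9 CPM), and B cell genes lower for 5 of 7 and higher for 2 (1258 to 254 CPM). Of 8 neutrophil genes, Camp (3.84-fold) and Mpo (2.39-fold) were higher, Ltf (3.07-fold) and Ly6g (2.97-fold) lower, and 4 lay between. T cell genes were higher for 2 of 10 and lower for 1 (626 to 956 CPM). The part these cells had in the heme gene levels was not tested. All 3 recipient comparisons use the uninjected library in which 9.51% of widely measured genes were missing. In that uninjected library Aco1, an iron regulatory protein, was at 0, and Slc25a28, mitoferrin-2, was at 0.103 CPM, while the 9 members had between 4081 and 44697 counts.

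Between the recipient pIUT libraries, which leaves the uninjected library out, 3 of 9 heme genes were at least 2-fold higher in DC-depleted pIUT, against 24.1% of all genes, and 0 were at least 2-fold lower, against 14.9%. Alas1 was 3.08-fold higher (log2 fold change 1.62, 1.58 to 1.67), Alad 2.36-fold (1.24, 1.18 to 1.29) and Cpox 2.29-fold (1.19, 1.11 to 1.28). Slc25a37 was 1.77-fold and Fech 1.64-fold higher. Alas2 was 1.58-fold lower (-0.66, -0.69 to -0.63), as in maternal cells, where Slc25a37 and Fech were also lower. For Ppox the interval of the log2 fold change, -0.17 to 0.02, included 0. The medians were 0.71 for the members and 0.116 for all genes. Erythroid genes were at least 2-fold higher for 14 of 18 and lower for 0, with Klf1 185-fold higher, while hepatocyte genes summed to 5.58 CPM in DC control and 942 CPM in DC-depleted pIUT, and Alb to 0 and 128.6 CPM. Neutrophil genes divided, with Mpo 25.2-fold (415.6 to 10460 CPM) and Elane 23.4-fold higher, both granule enzymes of granulocyte precursors, and the other 6 lower, among them Ltf, Ngp and Ly6g by 11.5-fold, 9.07-fold and 29.6-fold. T cell genes were lower for 10 of 10 (3961 to 956 CPM), and monocyte and macrophage genes were higher for 7 of 8, although their sum went from 10650 to 5805 CPM, Lyz2 being 2.13-fold lower. The part of these cells was not tested.

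Set against recipient cells of the same treatment, maternal cells had fewer heme gene counts in uninjected pups and more in both pIUT groups. In uninjected pups, 3 of 9 members (Alas1, Fech and Ppox) were at least 2-fold lower in maternal cells, against 23.9% of all genes, and 0 were higher, against 47.8%. The medians were -0.89 for the members and 0.783 for all genes. In DC control mIUT, 5 of 9 were at least 2-fold higher in maternal cells, against 20.5% of all genes, and 0 lower, against 45.5%. Alas2 was 287-fold higher (log2 fold change 8.17, 7.45 to 9.01) and Alad 30.9-fold higher (4.95, 4.70 to 5.22), whereas Uros, Urod and Ppox differed by at most 1.21-fold. In DC control pIUT, 8 of 9 were at least 2-fold higher in maternal cells, against 26.3% of all genes, and 1 (Alas1) lower, against 35.5%, a call lost with DESeq2 size factors (log2 fold change -0.87) and without hemoglobin genes (-0.81). Alad was 16.8-fold, Slc25a37 13-fold, Cpox 12.8-fold and Fech 8.87-fold higher. In DC-depleted pIUT, 8 of 9 were higher, against 22.6%, and 1 (Alas1) lower, against 41%. With library size as the scale 6 were higher, Alas2 (0.39) and Fech (0.85) falling short. Alad was 15.1-fold, Uros 10.9-fold and Cpox 8.91-fold higher and Alas1 9.26-fold lower. Median log2 fold changes in the 3 IUT groups were 1.40, 2.62 and 2.13 for the members and -0.79, -0.356 and -0.484 for all genes. Over all 8 libraries, edgeR's quasi-likelihood test of origin with treatment as a block (3 residual degrees of freedom, chosen after the data were seen) took the treatments as replicates of origin. It called 0 of 16796 genes (0%) at an adjusted p under 0.05. The 306 at an unadjusted p under 0.05 were a smaller share than 0.05 of the genes tested. Alad was higher in maternal cells by 3.40 on the log2 scale and Cpox by 2.55, and Alas1 was lower (-1.82), each with an adjusted p of 1. The other members were Alas2 (1.85), Slc25a37 (1.78), Fech (1.25), Uros (1.24), Urod (1.15) and Ppox (0.6), none of them called. Alas1 was lower in maternal cells in 4 of 4 treatments, and Alad and Cpox were higher in the 3 IUT treatments and lower in uninjected pups. Erythroid genes were at least 2-fold higher in maternal cells for 18 of 18 in DC control pIUT and 16 of 18 in DC-depleted pIUT. In uninjected pups they summed to 92270 CPM in maternal and 126200 CPM in recipient cells (1437 and 3080 CPM without hemoglobin). In DC control mIUT the sums were 20950 and 217 CPM (155.9 and 8.02 CPM without hemoglobin). Other cell types differed too. In uninjected pups, neutrophil genes summed to 2287 CPM in maternal and 15200 CPM in recipient cells, hepatocyte genes to 56.0 and 10260 CPM, B cell genes to 6868 and 1258 CPM, NK cell genes to 1229 and 145.2 CPM, T cell genes to 2240 and 626 CPM, and monocyte and macrophage genes to 14410 and 25990 CPM. In DC control mIUT, neutrophil genes summed to 162500 and 263700 CPM, hepatocyte genes to 4517 and 30.8 CPM, and monocyte and macrophage genes to 16880 and 35450 CPM. In DC control pIUT, neutrophil genes summed to 1528 CPM in maternal and 47270 CPM in recipient cells, T cell genes to 127.4 and 3961 CPM, and monocyte and macrophage genes to 698 and 10650 CPM. In DC-depleted pIUT the same sums were 10820 and 19890 CPM, 415 and 956 CPM, and 1616 and 5805 CPM. Their part in the differences between origins was not tested.

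The make-up of the heme gene counts also differed between libraries (a quantity chosen after the data were seen). Summed over the 9 genes, maternal cells had 1668, 711, 4902 and 5974 CPM in uninjected, DC control mIUT, DC control pIUT and DC-depleted pIUT pups, and recipient cells 3096, 445, 937 and 1225 CPM. Alad made up 48.5% of the sum in maternal DC-depleted pIUT cells, Alas2 51.1% in recipient DC control pIUT cells and Alas1 58.4% in recipient DC control mIUT cells. In the maternal and recipient uninjected libraries, which differed in level, the shares of Alas2 were 22.4% and 13.8%, of Alad 27.8% and 29.9%, and of Cpox 12.4% and 10.8%. In the recipient IUT libraries the share of Alad was lower, at 0.987%, 8.69% and 15.7% in recipient DC control mIUT, DC control pIUT and DC-depleted pIUT.

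**Figure D4:**
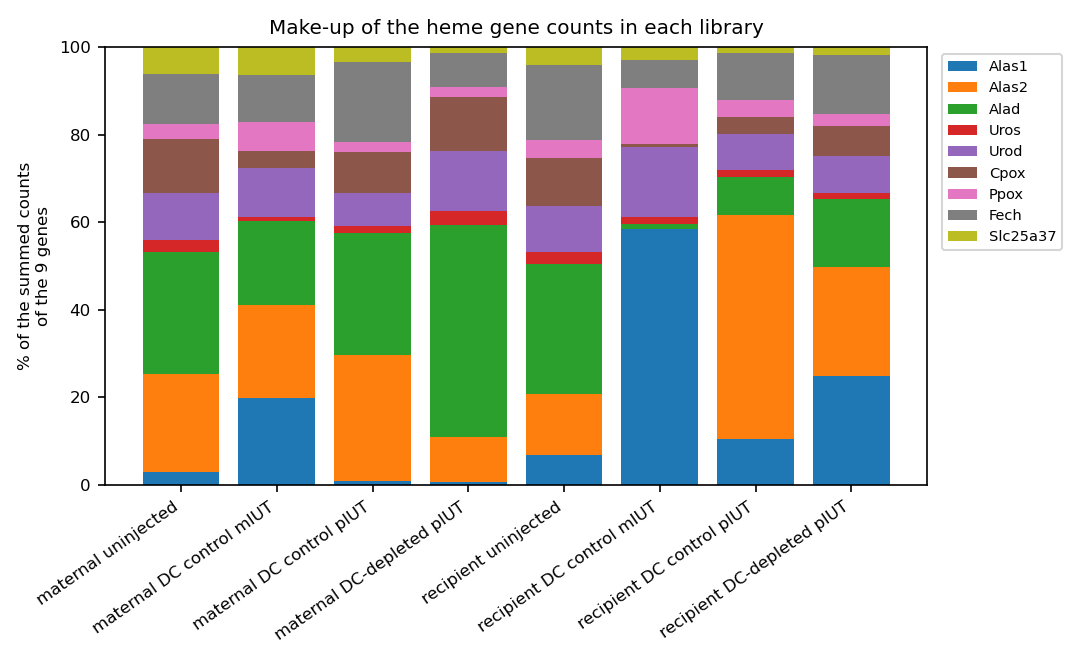
Share of each gene in the summed counts of the 9 heme genes (percent, not corrected for transcript length) in the 8 pooled libraries. Alad takes 48.5% in maternal DC-depleted pIUT, Alas2 51.1% in recipient DC control pIUT and Alas1 58.4% in recipient DC control mIUT cells.

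Per 1000 counts of the 4 adult hemoglobin genes, also a quantity chosen after the data were seen, the members summed to 18.4, 34.2, 38.4 and 33.3 in maternal cells and to 25.2, 2129, 23.5 and 47.6 in recipient cells, in the same order of treatments. Apart from the recipient DC control mIUT library, where hemoglobin was at 209 CPM, the sum stayed within 18.4 to 47.6. Single genes varied more. Alas2 per 1000 hemoglobin counts was 4.12, 7.27, 11.0 and 3.43 in maternal cells and 3.48, 2.50, 12 and 11.8 in recipient cells. Alas2 relative to hemoglobin in the recipient DC control mIUT library was thus of the order of that in uninjected cells. Alad per 1000 hemoglobin counts ran from 2.04 in recipient DC control pIUT to 16.2 in maternal DC-depleted pIUT, and was 21.0 in the recipient DC control mIUT library.

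Of 12045 genes with at least 10 CPM in a library, the 10 most like Alas2 over the 8 libraries, by Pearson's r of log2(CPM + 1), were Hba-a2 (0.972), Hba-a1 (0.970), Hbb-bs (0.967), Mrpl38, Srprb, Hilpda, Hbb-bt, Ung, Rcn1 and Ftsj3 (0.939). All 4 adult globin genes were in that list. Without the recipient DC control mIUT library, r fell to between 0.390 (Ftsj3) and 0.842 (Ung), and Hbb-bs stood at 0.752, so the likeness rested largely on that library. The 10 genes most like Alas1 were Agps (0.960), Atp8b4, Mki67, Gusb, Cldn15, Morc3, Stx18, Pcyox1, Etv6 and Tln1 (0.891), and without that library they lay between 0.868 and 0.953. None of the 8 other members was among them, and their r with Alas1 ran from -0.66 to -0.48. Among the members, Alad and Cpox had an r of 0.99 and Uros and Urod 0.97, while Alas2 had 0.87 with Alad, 0.82 with Fech and 0.28 with Ppox. Without the recipient DC control mIUT library, these 5 values were 0.97, 0.97, 0.62, 0.82 and 0.58. These are descriptions over 8 libraries of similar depth, with a shared pool of pups for each maternal and recipient pair.

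Genes that supply or move the substrates of heme synthesis were read from a list of 20. In DC control pIUT maternal cells 5 of 20 were at least 2-fold higher than in uninjected cells and 1 lower, and in DC-depleted pIUT maternal cells 12 of 20 were higher and 0 lower. The shares of all genes at least 2-fold higher were 33.3% and 35.3%, as given above. Tmem14c, which carries a porphyrin precursor through the inner mitochondrial membrane, had the highest level of the list, 1650 CPM in maternal DC-depleted pIUT, against 385 CPM in DC control pIUT and 161.7 to 359.6 CPM in the other 6 libraries. Slc25a38, the mitochondrial glycine carrier, was at 164.4 CPM there, against 63.7 CPM in DC control pIUT. Glrx5, which builds iron-sulfur clusters, was at 1291 and 329 CPM in these libraries. These 3 were 4.28-fold, 2.58-fold and 3.92-fold higher in DC-depleted than in DC control pIUT. Of the 20, 8 were at least 2-fold higher in that comparison and 1 lower, against 38.6% and 36.4% of all genes. Abcb10, which binds mitoferrin-1, was at 53.9, 0, 167.9 and 253.0 CPM in maternal cells and at 163.4, 9.87, 4.96 and 59.6 CPM in recipient cells. Slc25a28, the widely used iron carrier, stayed between 7.65 and 16.45 CPM in maternal cells and did not follow Slc25a37. In recipient cells, 11 of 20 were at least 2-fold lower and 5 higher in DC control mIUT, 5 lower and 6 higher in DC control pIUT, and 3 lower and 4 higher in DC-depleted pIUT than in uninjected cells. Over all genes, 24.6%, 20.2% and 18.2% were lower and 53.5%, 52.2% and 53.1% higher.

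Iron uptake and storage were read from 12 genes. Tfrc, the transferrin receptor, was at 86.4, 85.8, 340 and 310 CPM in maternal cells and at 112.4, 32.4, 87.2 and 89.1 CPM in recipient cells, highest in the maternal pIUT libraries, as Alad was. In DC control pIUT 7 of 12 genes were at least 2-fold higher than in uninjected cells and 1 lower, and in DC-depleted pIUT 7 were higher and 0 lower, against 33.3% and 35.3% of all genes higher. The 3 other genes with the IRE hairpin shown above had their own patterns. Fth1 was at 3812, 4374, 5850 and 3566 CPM in maternal cells and 4617, 1531, 1378 and 1501 CPM in recipient cells. Ftl1 was at 4838, 11440, 9885 and 3568 CPM in maternal cells and 8330, 4386, 2573 and 3509 CPM in recipient cells. Slc40a1 was at 22.2, 605, 48.3 and 373 CPM in maternal cells and 50.5, 889, 154.7 and 373 CPM in recipient cells, highest in the mIUT libraries in which Alas2 was lowest. Fth1 was lower in all 3 recipient IUT libraries than in the other 5 libraries, and Slc40a1 was not. Tfr2, a second transferrin receptor of erythroid and liver cells, was 149-fold lower in recipient DC control pIUT than in recipient uninjected cells.

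Heme breakdown and sensing were read from 8 genes. Blvrb, biliverdin reductase B, which is abundant in red cells, was at 336, 18.9, 514.5 and 1560 CPM in maternal cells and 479, 16.9, 18.1 and 82.0 CPM in recipient cells. It was highest and lowest in the same libraries as Alad in maternal cells. Hmox1, heme oxygenase 1, which opens the heme ring, was at 21.2, 218.7, 75.9 and 23.6 CPM in maternal cells and 214.9, 69.4, 11.6 and 74.6 CPM in recipient cells. In maternal DC control mIUT cells Hmox1 was 10.3-fold higher than in uninjected cells, where 7 of 9 heme synthesis genes were lower. Eif2ak1, the heme-regulated kinase that holds back globin translation when heme is short, stayed between 83.7 and 187.1 CPM in all 8 libraries.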

How the data were processed

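The authors sorted and pooled cells, sequenced total RNA on an Illumina HiSeq and processed it with the nf-core pipeline for RNA-seq on GRCm39 and the GENCODE M26 annotation. The deposited values are estimated counts per gene from salmon, not normalized (18.2% of the values of genes with a count in any library, zeros included, are not whole). The study's methods name featureCounts for this step, and the submitters' processing notes list bcl2fastq and StringTie. Tool versions and use of strand are not given in the sources used here. The authors' clonotype tables were not used.

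Estimated counts were rounded. Of 52784 genes, 25066 had a count, and 0 columns were left without a sample. TMM factors and log2 fold changes came from edgeR 4.0.16 in R 4.3.3 (exact test at the dispersion of 0.4 stated in the methods, prior count 0.125), without p values. The test of origin used edgeR's quasi-likelihood fit with Benjamini-Hochberg adjustment. A gene at 3 counts or fewer in 1 library gave a bound against 3 counts, and in both libraries no fold. Background shares cover genes above 3 counts in either library. Intervals at the 95% level are exact (Poisson for CPM, binomial for folds, Clopper-Pearson for shares) and cover counting error only; PCR reads are not independent molecules. Fold changes were tested on simulated data with 200 changed genes.

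Symbols, positions, transcripts and sequences came from GRCm39 with a later GENCODE release, matching 97.99% of identifiers. Per-kilobase values use the canonical transcript of that release. The members and gene lists were chosen with earlier results of these data known. All 9 members are named. Of the other lists, the genes named have the highest level, or the largest or smallest fold of a comparison, or are among Gata1, Klf1, Tfrc, Hmox1, Slc25a38, Slc25a28, Tmem14c, Abcb10 and Eif2ak1; Alb, Fth1 and further marker and transcription factor genes were added after their values were seen. Some genes that this rule names are not reported here. Alternatives were DESeq2 1.42.0 size factors, library size with and without hemoglobin genes, a minimum of 10 counts in both libraries, a prior count of 5, unrounded counts and shares per transcript length. Tables and figures were made in Python 3.11.15 (matplotlib 3.10.9, numpy 2.4.6, scipy 1.17.1, pandas 2.3.3).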

Additional observations from a re-analysis of the deposited data

Results flagged for a closer look

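Several heme genes were at least 2-fold higher in trafficked maternal cells and at least 2-fold lower in recipient cells under the same contrast. Each value here is the maternal minus the recipient log2 fold change, from 1 library per group, and the difference was not tested. For DC control pIUT against uninjected pups, Alad differed by 5.07 (1.56 in maternal and -3.50 in recipient cells) and Fech by 4.61 (2.22 and -2.39). Cpox differed by 4.38 (1.15 and -3.23), Urod by 3.07 (1.02 and -2.05) and Ppox by 2.92 (1.06 and -1.85). For DC-depleted pIUT against uninjected pups, Alad differed by 4.91 (2.64 and -2.27), Uros by 4.33 (2.01 and -2.33) and Cpox by 3.85 (1.82 and -2.04). Urod differed by 3.84 (2.19 and -1.64), Ppox by 3.39 (1.46 and -1.93) and Fech by 2.94 (1.27 and -1.67). Genes that went opposite ways without passing 2-fold in both origins are not among these, such as Slc25a37 (0.70 and -3.33) and Uros (0.88 and -2.63) in DC control pIUT, and Alas1 (-0.54 and 0.54) and Alas2 (0.72 and -0.50) in DC-depleted pIUT.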

How the results depend on the processing

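No paired analysis was possible because, between treatments, no replicate numbers were shared, each group having 1 pooled library; no replicate could be left out either. Maternal and recipient libraries of a treatment were paired in the test of origin. Of 108 fold changes of the 9 genes, 77 were past 2-fold, and none of these changed direction under DESeq2 size factors, library size alone, library size without hemoglobin genes, a minimum of 10 counts, a prior count of 5 or unrounded counts. Under 2-fold, 1, 6 and 6 changed direction under the first 3. The minimum of 10 counts could not change any of them, since the lowest count of a member in any library was 15. For DC-depleted against DC control pIUT in maternal cells, the count of members at least 2-fold higher, 3, became 1 with DESeq2 size factors, 0 with library size and 0 without hemoglobin genes, scales that moved all genes there by -0.151, -0.581 and -0.598 on the log2 scale. For maternal against recipient cells of DC control pIUT, the count of members at least 2-fold lower, 1, became 0 with DESeq2 size factors and 0 without hemoglobin genes. Smaller moves came in the counts for maternal DC control pIUT against uninjected cells (6 higher, up to 8), recipient DC control pIUT against uninjected cells (8 lower, down to 7), maternal against recipient cells of DC-depleted pIUT (8 higher, down to 6) and of uninjected pups (3 lower, up to 4), recipient DC-depleted against DC control pIUT (3 higher, up to 4) and the maternal pair (2 lower, up to 3). Per transcript length, the Alas2 share was 92.9%, 64.3%, 98.2% and 96.9% in maternal uninjected, DC control mIUT, DC control pIUT and DC-depleted pIUT cells, and 77.3%, 0.336%, 89% and 62.5% in the recipient libraries. Intervals cover counting error, which left 6 of 63 pairs of neighbouring levels overlapping. Spread between animals was not measured.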
